A study of Mus musculus with 4 samples.

Results

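The smooth muscle contractile genes described here are 10 genes, chosen by name: Acta2, Tagln, Cnn1, Myh11, Myocd, Des, Smtn, Cald1, Mylk and Lmod1. They were chosen with earlier results of these data known. All 10 were found through the RefSeq accession of their probes, among 20881 named genes on the array, and 12 probes read them (2 each for Smtn and Cald1, 1 for each other gene). Total RNA was measured in cardiomyocytes grown from CGR8, a mouse embryonic stem cell line, on 4 Agilent 1-colour arrays. The siErbB4 group (2 samples) was transfected with a small interfering RNA against Erbb4, a neuregulin receptor, and the siScr group (2 samples) with a scrambled RNA. Both were transfected for 48 hours with the same agent, in low-glucose medium with 2% serum. The titles number the samples 1 and 2 in each group, and no label says what the number marks or that samples came from separate cultures. Each p-value therefore reflects the spread between these samples alone. For siErbB4 against siScr it is the spread between replicate numbers, which may be technical. For replicates 2 against 1 it is the spread between a siErbB4 and a siScr array, which were treated differently. Groups were taken from the titles and the transfection field, while the descriptions of siErbB4 1 and siErbB4 2 both name scrambled RNA, and ErbB5 stands in the source name of siErbB4 2. The growth protocol gives alternative incubation times without tying them to samples.

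Smooth muscle contraction rests on actin and myosin filaments whose sliding is switched on when myosin light chain kinase phosphorylates the regulatory light chain. The genes for these proteins are known targets of serum response factor (SRF), which binds CArG boxes in their promoters and introns, and of its co-activator myocardin. In the embryonic heart, immature cardiomyocytes also express several of them for a time, among them Acta2, Tagln and Cnn1, so these genes mark both smooth muscle and young heart muscle, and Acta2 and Tagln also mark activated fibroblasts.

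Levels are log2 ratios of a probe's processed signal to the 75th percentile of its array, which therefore lies at 0. Levels of different probes are not set against each other. The 75th percentile lay between 878 and 989 signal units, 64.8% to 68.5% of probes were well above background, and precision is limited by having only 4 arrays. All 4 arrays lay on 1 slide and share 1 scan time, with both replicates 2 on positions 1 and 2 and both replicates 1 on positions 3 and 4. The Erbb4 probe exceeded background clearly only on the siErbB4 2 array, with processed signals of 2.83 and 15.0 in the siErbB4 arrays and 9.02 and 11.9 in the siScr arrays, so it does not check the knockdown. All 18 listed cardiomyocyte genes were well above background on all 4 arrays, and so were all 12 listed pluripotency genes.

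Of the 10 genes, 8 were well above background on all 4 arrays. Mylk was so on 3 arrays and Myh11 on 2. Myh11 did not pass the filter, which asked for both arrays of at least 1 group, so 9 of the 10 were tested. Mylk passed it through the siScr arrays alone. Within the set, the levels of 4 tested genes fell in the replicate 2 arrays of both groups relative to the replicate 1 arrays, by 1.04 to 1.80 on the log2 scale: Acta2, Tagln, Cald1 and Lmod1. They were called lower by limma at an adjusted p under 0.05, as were 2.29% of all 20918 features, while 47.0% had a negative difference. Counts of genes that fell or rose are counts of such calls. None of the 9 differed between siErbB4 and siScr beyond the spread between arrays (0% of features did). In RNA from a whole culture, fewer cells of a type and less RNA per cell cannot be told apart. The plot of levels by array shows these patterns gene by gene.

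**Figure D1:**
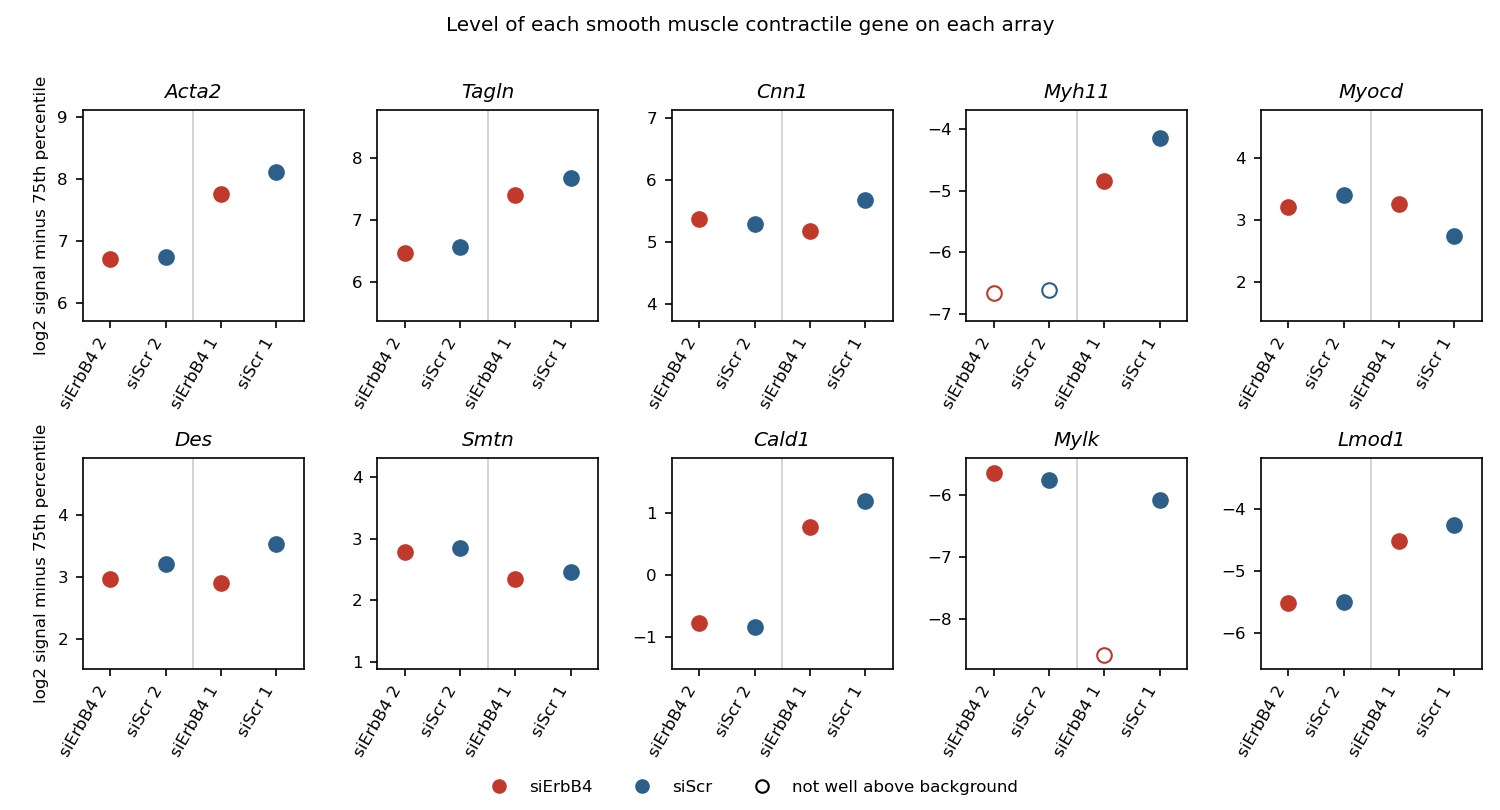
Level of each of the 10 genes (y axis, log2 ratio to the 75th percentile of the array, every panel spanning the same range) on each array (x axis, numbers are replicate numbers). Each point is 1 array; open points were not well above background. Acta2, Tagln, Cald1, Lmod1 and Myh11 are lower on both replicate 2 arrays than on both replicate 1 arrays, and Cnn1, Myocd and Des are not ordered by replicate number.

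Myocd encodes myocardin, the co-activator of SRF that is expressed in heart and smooth muscle. Its level was 3.20 in siErbB4 2 and 3.39 in siScr 2, against 3.25 in siErbB4 1 and 2.74 in siScr 1. The array of siScr 1 was the low one, and neither the groups nor the replicate numbers separated. The log2 difference between siErbB4 and siScr was 0.16 (SE 0.26, 95% interval -0.56 to 0.88), and between replicates 2 and 1 it was 0.30 (SE 0.21, 95% interval -0.24 to 0.84, adjusted p by limma 0.452).

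Acta2 encodes smooth muscle alpha-actin, the main actin of the smooth muscle thin filament. Its level was 6.70 in siErbB4 2 and 6.74 in siScr 2, against 7.76 in siErbB4 1 and 8.12 in siScr 1. Both replicate 2 arrays lay below both replicate 1 arrays, while siErbB4 and siScr overlapped. Acta2 fell by 1.22 on the log2 scale in the replicate 2 arrays (SE 0.16, 2.33-fold lower, 95% interval 1.75 to 3.09-fold), with an adjusted p by limma of 0.0311.

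The array carries the Acta2 probe in 10 spots, which shows how closely the measurement repeats within an array. The 20 spots of the replicate 2 arrays ran from 6.65 to 6.82 and the 20 spots of the replicate 1 arrays from 7.68 to 8.28, and no spot was saturated. The SD over the spots of 1 array was 0.0355 and 0.0538 in the siErbB4 arrays (replicates 2 and 1) and 0.0526 and 0.0812 in the siScr arrays. Within replicate 2, siErbB4 and siScr differed by -0.04 in Acta2, about the size of these spot SDs, and within replicate 1 by -0.35. Spots of an array share 1 RNA sample, so they measure technical spread only.

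**Figure D2:**
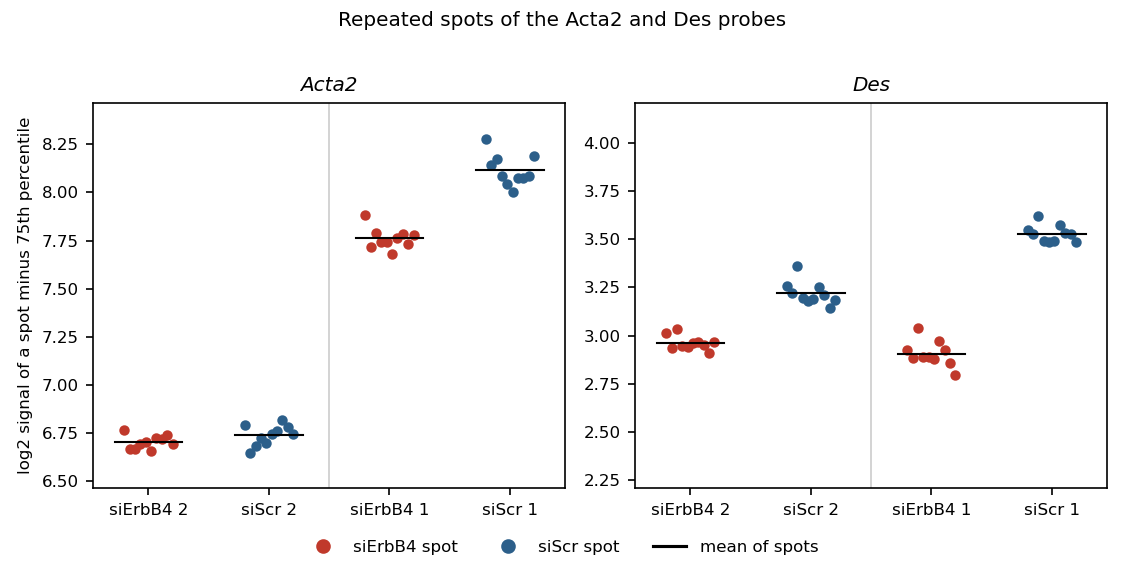
Log2 level of every spot of the Acta2 and Des probes (y axis, log2 ratio of the spot to the 75th percentile of the array) on each array (x axis, 10 spots per array and gene, numbers are replicate numbers). Bars are the means of the spots, and the spots of an array share 1 RNA sample. The Acta2 spots separate by replicate number, 6.65 to 6.82 on the replicate 2 arrays and 7.68 to 8.28 on the replicate 1 arrays, and the Des spots by group, 2.79 to 3.04 in siErbB4 and 3.14 to 3.62 in siScr.

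Tagln encodes transgelin (SM22-alpha), an actin-bundling protein of smooth muscle. Its level was 6.47 in siErbB4 2 and 6.57 in siScr 2, against 7.41 in siErbB4 1 and 7.69 in siScr 1. As for Acta2, the replicate numbers separated and the groups did not. Tagln fell by 1.04 in the replicate 2 arrays (SE 0.14, 2.05-fold lower, 95% interval 1.58 to 2.65-fold, adjusted p by limma 0.0336).

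Cald1 encodes caldesmon, which binds actin and calmodulin and holds back the actin-activated ATPase of myosin. Its brighter probe gave -0.77 in siErbB4 2 and -0.83 in siScr 2, against 0.78 in siErbB4 1 and 1.21 in siScr 1. The other probe, for the same transcript, gave -0.88 and -0.97 in siErbB4 2 and siScr 2, against 0.59 and 1.04 in siErbB4 1 and siScr 1. Both probes thus put the replicate 2 arrays on the low side. With a change of -1.80 (SE 0.18, 3.47-fold lower in replicates 2, 95% interval 2.52 to 4.77-fold), Cald1 had the lowest adjusted p of the 9 genes (0.0224 by limma).

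Lmod1 encodes leiomodin 1, which nucleates actin filaments in smooth muscle. Its dim signal was 20.6 units in siErbB4 2 and 19.5 in siScr 2, against 41.2 in siErbB4 1 and 52.1 in siScr 1. On the log2 scale these levels were -5.51 and -5.49 in siErbB4 2 and siScr 2, against -4.52 and -4.25 in siErbB4 1 and siScr 1. Lmod1 fell by 1.12 in the replicate 2 arrays (SE 0.14, adjusted p by limma 0.0283). With normexp background correction, which adds an offset and shrinks dim differences, the value was -0.27 and the call was lost (adjusted p by limma 0.162).

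Cnn1 encodes calponin 1, an actin-binding protein and a classical marker of differentiated smooth muscle. Its level was 5.37 in siErbB4 2 and 5.29 in siScr 2, against 5.17 in siErbB4 1 and 5.68 in siScr 1. The 4 arrays thus spanned 0.51, and siScr 1 was the high one. The difference between replicates 2 and 1 was -0.10 (SE 0.20, 95% interval -0.62 to 0.42), an interval that holds none of the values measured for Acta2, Tagln, Cald1 and Lmod1. The difference between Cnn1 and those genes was not itself tested.

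Promoter sequence was at hand in RefSeq's table (build GRCm38.p6, 250 bases before to 50 after the start) for 7 of the 10 genes, with 8 windows of 300 bases, and not for Tagln, Myh11 and Myocd. Windows were searched for the CArG box, the 10-base site of SRF, whose consensus reads the same on both strands. No window held the consensus, which 1.63% of 32851 promoters in the table hold. With up to 1 mismatch, Acta2 and Lmod1 each held 2 matches, Cald1 held 1 at 1 of its 2 starts, and Cnn1, Des, Smtn and Mylk held none; at least 1 such match is found in 21.1% of all promoters and 2 or more in 3.70%. The Acta2 matches begin 84 and 34 bases before the start (chr19:34255324-34255623, minus strand), those of Lmod1 189 and 164 bases before it (chr1:135324563-135324862, plus strand), and that of Cald1 203 bases before it (chr6:34598254-34598553, plus strand). These windows and that of Cnn1 (chr9:22099003-22099302, plus strand), whose level was not ordered by replicate number, are shown 5′ to 3′ with the matches in capitals. A match is a run of letters and not evidence of binding, and an empty window says nothing about sites elsewhere in the gene.
Acta2: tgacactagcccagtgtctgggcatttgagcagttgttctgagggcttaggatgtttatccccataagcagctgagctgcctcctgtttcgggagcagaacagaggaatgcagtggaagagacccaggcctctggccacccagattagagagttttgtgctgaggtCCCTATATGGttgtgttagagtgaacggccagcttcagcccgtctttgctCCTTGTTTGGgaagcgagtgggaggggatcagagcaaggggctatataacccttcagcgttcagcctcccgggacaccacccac
Lmod1: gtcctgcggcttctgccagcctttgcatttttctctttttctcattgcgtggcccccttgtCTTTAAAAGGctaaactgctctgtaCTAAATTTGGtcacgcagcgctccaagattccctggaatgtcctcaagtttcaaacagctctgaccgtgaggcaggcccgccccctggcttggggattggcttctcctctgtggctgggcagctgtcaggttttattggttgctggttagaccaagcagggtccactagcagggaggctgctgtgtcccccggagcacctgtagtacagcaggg
Cald1: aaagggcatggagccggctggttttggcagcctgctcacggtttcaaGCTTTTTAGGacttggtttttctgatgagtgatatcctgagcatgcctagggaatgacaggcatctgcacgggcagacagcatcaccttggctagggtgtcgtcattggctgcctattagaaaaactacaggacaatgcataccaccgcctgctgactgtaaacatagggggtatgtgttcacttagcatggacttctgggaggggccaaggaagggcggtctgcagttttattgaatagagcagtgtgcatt
Cnn1: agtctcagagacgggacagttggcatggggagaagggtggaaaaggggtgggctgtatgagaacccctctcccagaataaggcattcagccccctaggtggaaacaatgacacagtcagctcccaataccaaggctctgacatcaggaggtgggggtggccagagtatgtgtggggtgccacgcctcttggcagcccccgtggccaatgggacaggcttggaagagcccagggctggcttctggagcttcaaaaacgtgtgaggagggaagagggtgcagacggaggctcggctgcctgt

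Myh11 encodes the smooth muscle myosin heavy chain, the thick-filament protein taken as the most specific marker of the lineage. Its signal was 9.27 units in siErbB4 2 and 8.98 in siScr 2, against 32.8 in siErbB4 1 and 55.9 in siScr 1. It was well above background on both replicate 1 arrays and on neither replicate 2 array, so each group measured it on 1 of its 2 arrays. Myh11 was 3.65-fold lower in the replicate 2 arrays when a floor stood in for its signal there. The floor was the dimmest signal that any probe well above background had on that array, and is not a detection limit of this probe. With normexp the log2 difference between replicates 2 and 1 was -0.49. In the fit without a filter the adjusted p by limma was 0.129.

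Mylk encodes myosin light chain kinase, which starts contraction by phosphorylating the regulatory light chain. Its probe was dim, with signals of 18.9 in siErbB4 2 and 16.3 in siScr 2, against 2.48 in siErbB4 1 and 14.7 in siScr 1. The array of siErbB4 1 was not well above background and stood apart from the other three. Every Mylk difference rests on it: between replicates 2 and 1 the value was 1.63 (SE 0.83, adjusted p by limma 0.328), 0.38 without siErbB4 1 and 0.34 with normexp. Between siErbB4 and siScr it was -1.19 (SE 1.05), 0.28 without siErbB4 1 and -0.05 with normexp.

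Smtn encodes smoothelin, a cytoskeletal protein of contractile smooth muscle cells. Its brighter probe gave 2.79 in siErbB4 2 and 2.84 in siScr 2, against 2.34 in siErbB4 1 and 2.46 in siScr 1. The second probe, for another transcript, gave 0.02 and 0.0027 in siErbB4 2 and siScr 2, against -0.50 and -0.15 in siErbB4 1 and siScr 1. On both probes the replicate 2 arrays lay above the replicate 1 arrays, opposite in side to Acta2 and Tagln. The difference of 0.41 (SE 0.11, 95% interval 0.12 to 0.71) did not pass the threshold across all features (adjusted p by limma 0.119).

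Des encodes desmin, the intermediate filament protein of all muscle types, heart muscle included. Its level was 2.91 in siErbB4 1 and 2.96 in siErbB4 2, against 3.53 in siScr 1 and 3.22 in siScr 2. It was the one tested member whose groups did not overlap, both siErbB4 arrays lying below both siScr arrays; a gap on that side was found at 15.9% of all 20918 features, on the other side at 13.1% and on either side at 28.9%. The Des probe is also printed in 10 spots, which ran from 2.79 to 3.04 in the siErbB4 arrays and from 3.14 to 3.62 in the siScr arrays. As for Acta2, spots of an array share 1 RNA sample, so they add no support to the gap between arrays. By limma, siErbB4 minus siScr was -0.44 for Des, with an SE of 0.17, a 95% interval of -0.90 to 0.02, an unadjusted p of 0.0574 and an adjusted p of 1.00. Leaving out 1 array in turn gave -0.59 to -0.29.

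Between siErbB4 and siScr, 0 of the 9 tested genes passed limma's test at an adjusted p of 0.05, as did 0% of 20918 features, and 0 of the 9 had an unadjusted p under 0.05, against 1.79% of features. Negative differences were found for 8 of the 9, with a median of -0.19, beside a median of -0.01 and 52.9% negative over all features. Mylk is 1 of the 8, and it passed the filter only through siScr, the group where it is high, so its sign adds no support. The 95% intervals were wide where the replicate numbers differed. Acta2 gave -0.20 (95% interval -1.92 to 1.52), Tagln -0.19 (-1.66 to 1.28), Cald1 -0.18 (-2.69 to 2.32) and Lmod1 -0.14 (-1.72 to 1.44). Each of these intervals reaches past 2-fold either way in this fit, which carries the spread between replicate numbers as error. They were tighter for Cnn1 at -0.21 (-0.77 to 0.34) and Smtn at -0.09 (-0.75 to 0.58).

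The sign for most of the tested genes turned in at least 1 fit with an array left out, and for fewer genes between the replicate numbers. Within replicate 2, siErbB4 minus siScr lay between -0.26 and 0.12 for all 10 genes, with 7 negative (55.3% of features were). Myh11 was not well above background on either of these arrays. Within replicate 1 the difference was negative for 9 of the 10 (50.3% of features), with a median of -0.39, and Myocd was the exception at 0.51. Mylk, at -2.51 there, was not well above background on siErbB4 1. Over all features the medians were -0.02 within replicate 2 and -0.0020 within replicate 1. Each of these contrasts sets 1 array against 1 and has no replicate check. Without siScr 1, Acta2 turned to 0.49, Tagln to 0.37, Cald1 to 0.84 and Lmod1 to 0.48. Without siErbB4 2, they turned to 0.33, 0.28, 0.59 and 0.35. Such a fit sets both replicate numbers against 1, so the replicate difference enters its values. Within the same number (replicates 2 and 1), the sign held for Acta2 at -0.04 and -0.35, Tagln at -0.10 and -0.28, and Lmod1 at -0.02 and -0.27. It also held for Des, Smtn and Myh11. Cald1 turned, with 0.06 and -0.43, as did Cnn1, Myocd and Mylk.

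Between replicates 2 and 1, 4 of the 9 tested genes were called, beside 5.16% of all features; the 4 fell (2.29% of features did) and 0 rose (2.86%). An unadjusted p under 0.05 was found at 5 of the 9, Smtn being the fifth, and at 23.0% of features. The other 5 were split, with Cnn1 and Des slightly negative and Smtn, Myocd and Mylk positive, so that the median over the 9 was -0.13, against 0.02 over all features. Replicate numbers did not overlap at 4 genes on the lower side (26.0% of features) and at 2 on the higher side (29.4%), namely Smtn and Mylk, which makes 6 of 9 on either side (55.5%). A log2 difference of -1 or below was found at 4 of the 9 and at 2.66% of features, and one of 1 or more in size at 5 of the 9, Mylk included, and at 5.26% of features. The size for Mylk rests on siErbB4 1, where its probe was not well above background. The sign of the replicate difference was opposite in the siErbB4 and siScr arrays at 3 of the 9, namely Cnn1, Des and Myocd, and at 29.7% of features. The plot of differences sets both comparisons side by side.

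**Figure D3:**
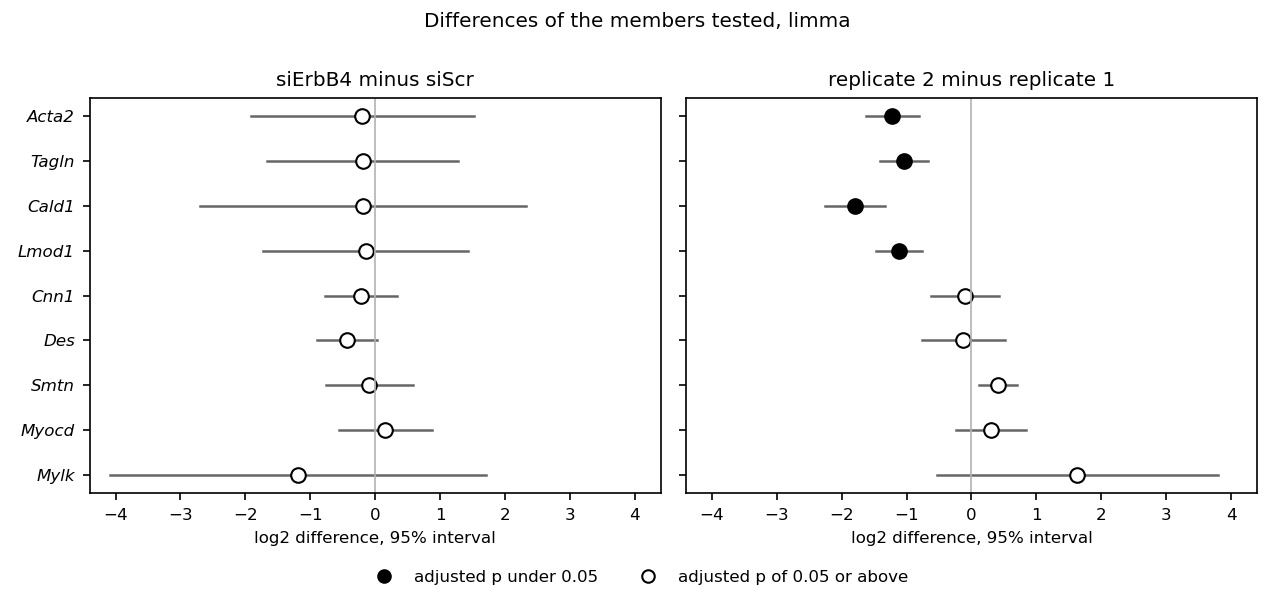
Log2 differences of the 9 tested genes (x axis, limma estimate as a point with its 95% interval as a line) for siErbB4 minus siScr and for replicate 2 minus replicate 1. Filled points had an adjusted p under 0.05, which holds for Acta2, Tagln, Cald1 and Lmod1 in the right panel and for none in the left.

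The 4 genes were lower within each group. In the siErbB4 arrays, replicate 2 minus replicate 1 was -1.06 for Acta2, -0.95 for Tagln, -1.55 for Cald1 and -0.99 for Lmod1, and in the siScr arrays it was -1.38, -1.12, -2.04 and -1.24. The calls were less firm than the directions. All 4 were lost without siScr 1, without siScr 2 and without siErbB4 2 (adjusted p by limma of 0.0509 to 0.134), while the values stayed between -1.83 and -0.90. They were also lost when dim probes were kept in the test (adjusted p by limma of 0.122 to 0.143), where limma called 0 of 32800 features, 4678 having an unadjusted p under 0.05.

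Spike-in probes well above background, which read RNA added from outside the cells, differed between replicates 2 and 1 by a median of 0.08 over 7 probes (-0.05 to 0.10). Between siErbB4 and siScr the same probes differed by a median of 0.10 (0.03 to 0.31), all higher in siErbB4. Levels were not adjusted for them. Position on the slide and replicate number cannot be told apart.

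Other genes of the same machinery were compared from lists of known function, also chosen with earlier results of these data known. Of 20 regulators that act with SRF or on smooth muscle fate, 19 were tested, 0 were called in either comparison, and their median was -0.03 between replicates 2 and 1. The SRF cofactor gene Fhl2 gave 0.91 (adjusted p by limma 0.0733). Of 20 genes of contraction signalling, 1 fell (2.29% of all features did) and 0 rose (2.86%). On either side 1 of 20 was called, near the 5.16% over all features. The called gene was Ppp1r14a, which encodes CPI-17, an inhibitor of myosin phosphatase, at -2.16 (SE 0.34, adjusted p by limma 0.0446). The caveolin gene Cav1 gave -1.06 (adjusted p by limma 0.101).

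In the wider smooth muscle cytoskeleton 4 of 30 genes fell (2.29% of all features did) and 0 rose (2.86%) in the replicate 2 arrays, with a median of -0.23, against 0.02 over all features. Synpo2, which encodes an actin-binding protein of Z-discs and dense bodies, gave -2.23 (SE 0.18), and Filip1l gave -1.45 (SE 0.13). Tpm2, which encodes beta-tropomyosin of the thin filament, gave -1.40 (SE 0.24) and the actin-associated LIM protein gene Pdlim3 -0.79 (SE 0.12). Adjusted p-values by limma for these ran from 0.0190 to 0.0489. Among 9 other actin and myosin genes 2 fell, beside the same 2.29% of features: the cytoplasmic beta-actin gene Actb at -0.89 (SE 0.11) and the nonmuscle myosin heavy chain gene Myh9 at -1.01 (SE 0.14). Actb and Myh9 are expressed in most cell types.

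Called genes were also found among markers of some other cell types, to be read beside the 2.29% of all features that fell and the 2.86% that rose. Of 18 tested fibroblast and matrix genes 4 fell and 0 rose in the replicate 2 arrays, with a median of -0.98 and 14 negative: Fn1 at -1.05, Col1a1 at -2.27 and, named after their values were seen, Postn at -1.89 and Pdgfra at -0.73. The list's summed signal was 229 and 276 times the 75th percentile in siErbB4 2 and siScr 2, against 271 and 289 times in siErbB4 1 and siScr 1, and Fap was on no array well above background. Of 18 cardiomyocyte genes 4 rose and 0 fell, with a median of 0.48 and 17 positive: Myl3 at 1.06, Tnni3 at 0.97 and, named after their values were seen, Nppa at 1.31 and Ryr2 at 0.69. Their summed signal was 2769 and 3009 times the 75th percentile in siErbB4 2 and siScr 2, against 2142.5 and 2220 times in siErbB4 1 and siScr 1. The part of these lists in the lower Acta2, Tagln, Cald1 and Lmod1 levels was not tested.

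Pericyte markers were split between the replicate numbers, with Anpep lower at -1.77 and Abcc9, a potassium channel regulator also expressed in heart muscle, higher at 1.64, both called, and a median of -0.08 over 9 genes. Kcnj8 was well above background on no array. The pericyte sum was 38.5 and 37.9 times the 75th percentile in siErbB4 2 and siScr 2, against 32.4 and 32.3 times in siErbB4 1 and siScr 1. Of 9 epicardial genes 1 was called lower, Bnc1, and the list had a median of -0.71 with 7 negative. Bnc1 and Msln were well above background on 3 of the 4 arrays, siScr 2 being the dim one, so no size is given for either. Of 7 endoderm genes Afp rose at 0.65, and Ttr gave 0.97 (adjusted p by limma 0.0578). All 7 were positive, with a median of 0.65. By limma, no gene was called among 9 endothelial genes (lowest p for Cdh5 at -1.51 and Flt1 at 0.66), 12 pluripotency genes (Nanog at 0.23 and Dppa5a at -0.22) and 7 skeletal muscle genes (Tnnt3 at 0.84 and Myl1 at 0.83). Their medians were -0.46 (endothelial, 7 negative), -0.02 (pluripotency, 6 negative) and 0.12 (skeletal, 2 negative). Shifts of a whole list were thus not particular to the fibroblast and cardiomyocyte lists. The skeletal regulators Myod1, Myog and Myf5 were well above background on no array.

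**Figure D4:**
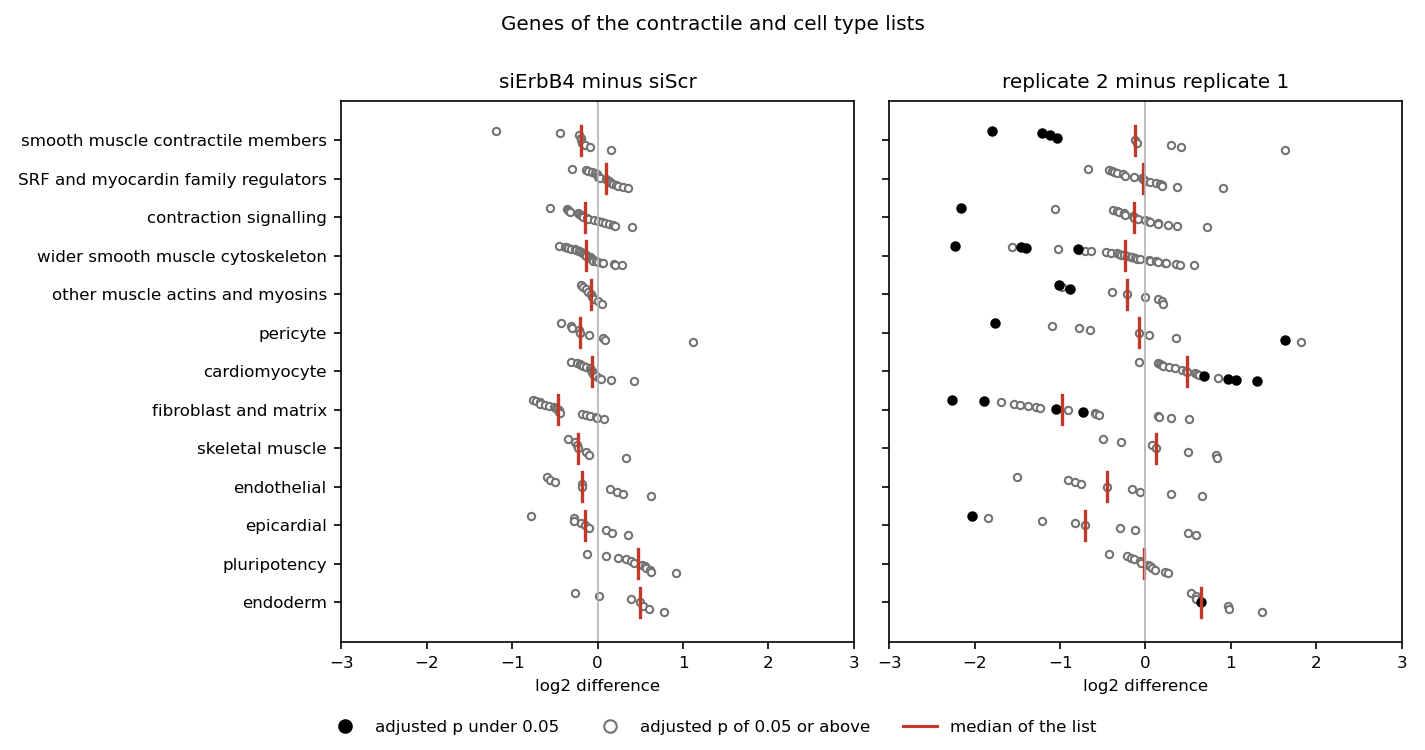
Log2 differences (x axis) of the tested genes of each list (y axis), for siErbB4 minus siScr and for replicate 2 minus replicate 1. Each point is a gene, filled where the adjusted p was under 0.05, and red lines are list medians. In the right panel the contractile, cytoskeletal and fibroblast lists hold filled points on the left side (4, 4 and 4) and the cardiomyocyte list 4 on the right side, while the left panel holds none.

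Between siErbB4 and siScr none of these lists held a called gene. The regulators had a median of 0.10, with Klf4, a repressor of smooth muscle genes, at 0.35 (SE 0.19) and Klf15 at 0.24 (SE 0.13). The signalling list had a median of -0.14, with the integrin gene Itga5 at -0.33 (SE 0.21). The cytoskeleton list had a median of -0.14, with the PDZ-LIM genes Pdlim7 at -0.45 (SE 0.17) and Ldb3 at 0.29 (SE 0.13), and other actins and myosins -0.08, with Myl7 at -0.17 and Myh10 at -0.14. Cell type lists had medians of -0.20 (pericyte; Higd1b -0.21, Cspg4 -0.20), -0.07 (cardiomyocyte; Tnnc1 -0.19), -0.47 (fibroblast; Col6a2 -0.72, Ddr2 -0.49) and -0.23 (skeletal; Myh3 0.33, Tnni2 -0.34). The others were -0.18 (endothelial; Plvap -0.55, Pecam1 -0.18), -0.15 (epicardial; Aldh1a2 -0.19, Scx -0.27), 0.47 (pluripotency; Tcl1 0.61, Fbxo15 0.56) and 0.50 (endoderm; Foxa3 0.53, Foxa2 0.50).

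The median profile of the 9 tested genes, each centred on its own mean over the 4 arrays, stood at -0.26 in siErbB4 2 and -0.16 in siScr 2, against 0.04 in siErbB4 1 and 0.37 in siScr 1. Of 14984 other named genes, the 8 nearest to it by Euclidean distance over the 4 arrays were Hectd3, Dennd2a, Ppfibp1, Pak1, Arap1, Dapk2, Cdc42ep1 and Zfp445, at distances of 0.0230 to 0.0427. The members themselves lay farther off, between 0.360 for Cnn1 and 2.56 for Mylk. The profile of 4 values is therefore a description of the set's middle and of no single member.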

How the data were processed

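Total RNA of 4 samples (2 siErbB4, 2 siScr) was copied to Cy3-labelled RNA from 200 ng and read on 4 Agilent 1-colour arrays, per the labels' protocols. The submitters' processing notes name Agilent Feature Extraction, version 10.7.1.1; per the file headers, the processed intensity is background-subtracted and detrended within the array, and not scaled between arrays. The software's spot flags (outlier, saturation, signal over background) were deposited in the same files. The authors' deposited value table is on a log2 scale and holds the processed signal relative to each array's 75th percentile (largest difference for single-spot probes 0.00328; column medians -3.81, -3.83, -3.83 and -3.86).

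Of 39429 non-control probes, 39417 were measured on all arrays after outlier spots were left out, and spots of a probe were averaged. Of all probes, 27508 were named through RefSeq accessions (GRCm38.p6); the array's headers name another build, so its own coordinates are not used, and promoter windows carry those of the RefSeq table. Log2 processed signals were scaled to the 75th percentile, probes were kept if both arrays of a group had them well above background, and the brightest probe of a gene was used (20918 features, 5925 of them unnamed). Comparisons used limma 3.58.1 in R 4.3.3 (two-sided, Benjamini-Hochberg over all features, threshold 0.05), with 2 residual degrees of freedom. The fit was also run on simulated data whose spread was independent between arrays. Deviations of same-numbered arrays correlated here, so those simulations do not check the fit under that correlation. With 2 arrays against 2, the smallest p an exact permutation test allows is 0.333. The genes and lists were chosen with earlier results of these data known. The text names all members, the 2 genes of each other list with the lowest p per comparison, called genes of 3 lists and the 8 genes nearest in profile; some genes that this rule names are not reported here. Alternatives covered background correction, scaling, filter, probe choice, the value table, left-out arrays and the replicate block.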

Additional observations from a re-analysis of the deposited data

Results flagged for a closer look

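Cnn1, Myocd and Des differed between the replicate numbers in opposite directions in the siErbB4 and the siScr arrays, as did 29.7% of all features. Replicate 2 minus replicate 1 was 0.20 in siErbB4 and -0.40 in siScr for Cnn1 (siErbB4 minus siScr 0.59), -0.05 and 0.65 for Myocd (-0.70), and 0.06 and -0.31 for Des (0.37). Each value compares 1 array with 1, and the difference between the groups was not tested.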

How the results depend on the processing

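Between siErbB4 and siScr, 0 features and 0 members were called under every alternative run, with limma. With arrays left out in turn, the median over members ran from -0.75 to 0.18, Acta2 from -0.88 to 0.49, Tagln from -0.75 to 0.37, Cald1 from -1.20 to 0.84, Lmod1 from -0.77 to 0.48, Myocd from -0.17 to 0.49, Smtn from -0.31 to 0.13, Mylk from -2.66 to 0.28 and Cnn1 from -0.41 to -0.016. Between replicates 2 and 1, 1079 features and 4 members were called. Without a filter both counts were 0, and with normexp 1890 features were called. With arrays left out they were 0 to 1551 features and 0 to 4 members: 0 features without siScr 1 (5311 with an unadjusted p under 0.05) or siScr 2 (2704), 68 without siErbB4 2 and 1551 without siErbB4 1. The median over members was -0.58 without a filter, -0.58 with the filter by replicate number (chosen after seeing the data), which let Myh11 in through the arrays where it is high, and -0.44 to 0.048 with arrays left out. Cnn1 then ran from -0.36 to 0.16, Des from -0.44 to 0.18, Myocd from 0.048 to 0.56 and Mylk from 0.38 to 2.88. With 1 array left out, the lone array of its side was assumed to vary like the others. Leaving out 1 array also sets both replicate numbers against 1 in siErbB4 minus siScr, so the replicate difference enters that value. In replicate 2 minus replicate 1 it sets both groups against 1 in the same way. Beyond this, the fewer arrays and the added dim probes, causes of these shifts were not tested. Deviations of same-numbered arrays from their group means correlated at 0.678 across 20918 features, and no label pairs the samples. With the replicate block, 0 features were called between the groups (1567 with an unadjusted p under 0.05, against 375 without it). The 95% intervals then were -0.57 to 0.17 for Acta2, -0.52 to 0.14 for Tagln, -0.63 to 0.26 for Cald1 and -0.49 to 0.20 for Lmod1, all within 2-fold, and Des had an unadjusted p by limma of 0.0342 (adjusted 0.641). With the group as a second factor 1532 features and 4 members were called between the replicate numbers. Dim signal limits Lmod1, Mylk and Myh11.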
